A study of Sus scrofa with 12 samples.

Results

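The circular RNAs described here are the exonic circles of host genes that gave rise to no other exonic circle in the livers studied. A circRNA is a closed RNA loop. A host counted when exactly 1 of the circRNAs made of annotated exons was assigned to it, and hosts on chromosomes X and Y were left out. The rule used gene assignment and position, not the size of the counts, though a circle had to be detected to be listed. It gave 1659 circRNAs from 1659 hosts, out of 19118 exonic circRNAs from 4853 hosts and 24177 circRNAs of all kinds. A further 59 single circles of X and Y hosts were set aside.

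Liver was taken on day 15 from 12 pigs of 2 breeds, Hezuo and Bama, to look for genes and non-coding RNAs tied to cold resistance in Hezuo pigs. Hezuo pigs come from the cold highlands of Gansu in China, and Bama pigs are miniature pigs of its warm south. The 4 groups were Hezuo pigs in the cold (-15 ± 2 °C), Hezuo pigs at room temperature (23 ± 2 °C), Bama pigs in the cold and Bama pigs at room temperature, with 3 pigs in each. The labels give neither age nor sex and name no genetic change or drug, and housing and feed are described alike for all pigs.

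Back-splicing joins the end of an exon to the start of an exon that lies upstream of it in the gene, so that a stretch of the transcript is closed into a loop without cap or poly(A) tail. The loops resist the exonucleases that start at RNA ends, and they accumulate in slowly dividing tissues such as liver. Long flanking introns with inverted repeats and several RNA-binding proteins promote the reaction, which competes with linear splicing of the same transcript. Many hosts make a whole set of overlapping circles, and the hosts described here are those for which 1 was found.

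The single circles were sparse. They held 25918 back-splice counts, which are the reads that cross the closing junction, or 4.14% of all such counts in the 12 libraries. Per circle the sum over all libraries ran from 2 to 773, with a median of 6 and quartiles of 3 and 13. Of the 1659, 301 had 2 counts and 1094 (65.9%) had fewer than 10. At the other end 41 circles reached 100 counts, and the 100 most abundant held 48.9% of the counts. Only 74 circles (4.46%) were found in all 12 libraries, while 490 (29.5%) were found in 1.

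Hosts with 2 to 9 exonic circles were set beside them, 10180 circles from 2605 hosts, and so were hosts with 10 or more, 6831 circles from 442 hosts. Median counts per circle were 6 for the single circles, 8 for the hosts with 2 to 9 and 9 for the hosts with 10 or more. The share found in 1 library was 29.5%, 19.3% and 15.2% in the same order. The nearest group outside the rule, 1708 circles of 854 hosts with exactly 2, had a median of 7 counts per circle and 17 per host. A host whose RNA gives few back-splice reads has fewer chances to show another circle, so counts and grouping are not independent. How far this set the grouping was not tested.

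**Figure D1:**
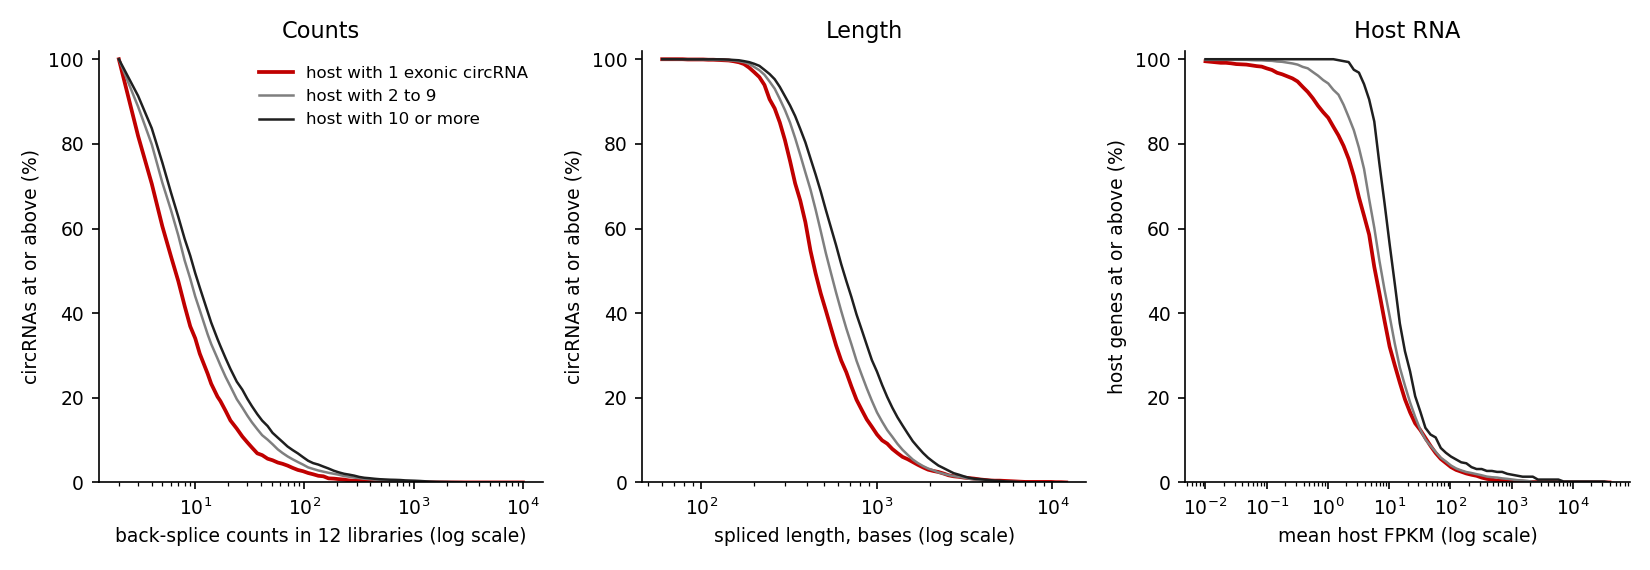
Share of circles at or above a value, in percent, for the counts summed over 12 libraries (left), the spliced length in bases (middle) and the mean host FPKM (right, log axes). The single circles (red) lie below the hosts with 2 to 9 circles (grey) and with 10 or more (black) over most of each scale, with median lengths of 445, 545 and 645 bases.

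The circles themselves were short. Their spliced length ran from 82 to 11250 bases with a median of 445 and quartiles of 326 and 686, and 65.8% lay between 200 and 600 bases. Circles of hosts with 2 to 9 had a median of 545 bases and those of hosts with 10 or more a median of 645. The genomic span from the first to the last base had a median of 4698 bases for the single circles, against 8872 and 12327 bases. This order held within each class of abundance. Among circles with 2 to 9 counts the median lengths were 461.5, 563 and 703 bases, and among circles with 100 counts or more they were 415, 497.5 and 590 bases. A spliced length divisible by 3, which leaves an open reading frame unbroken across the junction, was found in 37.1% of the single circles, 37.0% of the circles of hosts with 2 to 9 and 37.7% of those of hosts with 10 or more. By chromosome, single circles made up 4.88% of the exonic circles on chromosome 11 and 13.3% on chromosome 7, the lowest and highest shares. Only 1 of them overlapped, on the same strand, an exonic circle assigned to another host.

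The linear RNA of the hosts was compared as FPKM, fragments scaled to gene length and library size, averaged over the 12 libraries. Its median was 5.88 FPKM for the single-circle hosts, 7.43 FPKM for hosts with 2 to 9 circles and 11.7 FPKM for hosts with 10 or more. Of the single-circle hosts, 226 (13.7%) had less than 1 FPKM and 61 reached 100 FPKM. Across 1651 of them the number of circle counts had a Pearson correlation of 0.096 with host FPKM on log scales, a description only, since circle and host were read in the same libraries. Host FPKM includes reads from the exons of the circle itself, and the 2 sources cannot be told apart in these tables.

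Several hosts with much RNA in liver had very few counts for their exonic circle. FGA, the fibrinogen alpha chain, had a mean of 4816 FPKM and 2 counts for this circle in 12 libraries, beside 88 counts for a circle made of 1 exon, a kind outside the rule. EEF1A1, a translation elongation factor, had 3057 FPKM and 6 counts. CYP2A19, a cytochrome P450, had 1449 FPKM and 3 counts, and APOB, the protein of very-low-density lipoprotein, had 827 FPKM and 2 counts. The opposite was seen in hosts with little RNA. PHYHIPL had 0.388 FPKM and 191 counts, or 493 counts per FPKM. The next ratios among circles with at least 100 counts were 146 for ZNF292, 124 for PRDM11, 123 for ZKSCAN1, 112 for RRP15, 85.9 for MFAP1, 85.5 for ACVR2A and 75.9 for ZFPM2. Of these 7, ZNF292, PRDM11, ZKSCAN1 and ZFPM2 encode zinc finger proteins, RRP15 a ribosome biogenesis protein, MFAP1 a spliceosome component and ACVR2A an activin receptor.

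**Figure D2:**
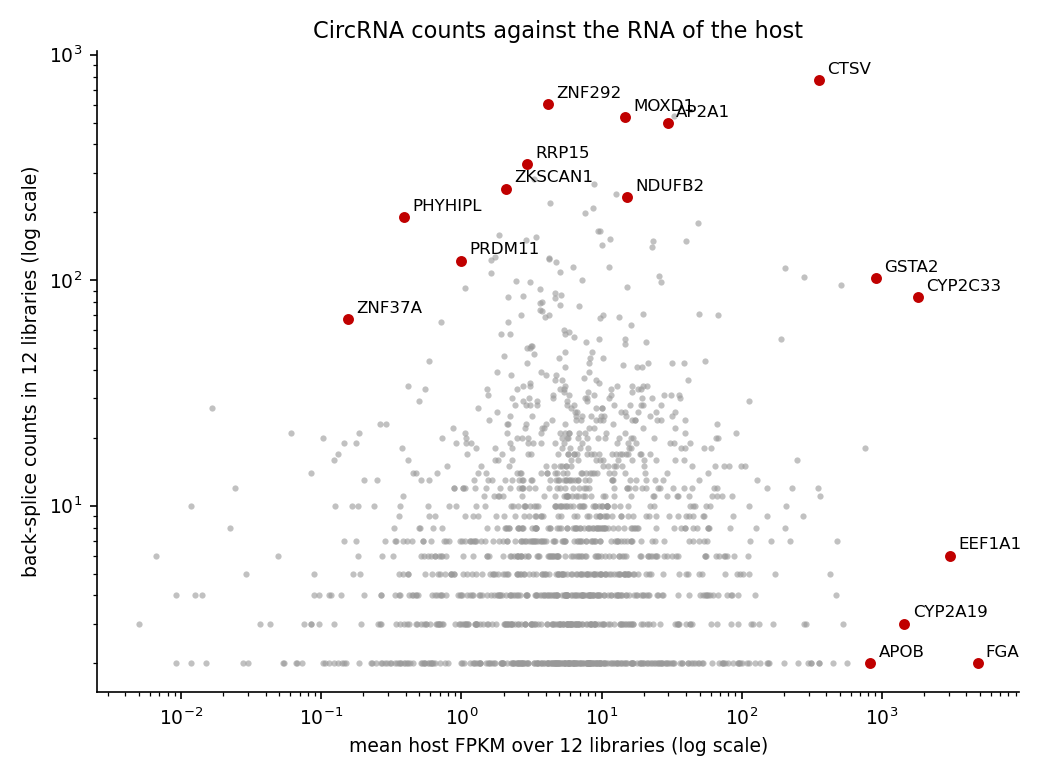
Back-splice counts of each single circle, summed over 12 libraries, against the mean FPKM of its host, both on log axes, with named circles labelled. Points fill the plane with little slope (Pearson 0.096); CTSV is highest at 773 counts, PHYHIPL stands far left at 0.388 FPKM with 191 counts, and FGA lies at the lower right with 2 counts at 4816 FPKM.

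The most abundant single circle came from CTSV, annotated as cathepsin V, a lysosomal cysteine protease, at chr10:25205440-25206443 on the plus strand, 284 bases after splicing (coordinates as the authors' circRNA table gives them, with no build named in the sources used here). It had 93, 49 and 74 counts in the Hezuo cold libraries, 28, 51 and 58 in Hezuo at room temperature, 40, 81 and 56 in the Bama cold libraries and 107, 57 and 79 in Bama at room temperature. The groups overlapped, and the mean was 1428 ± 555 CPM (counts scaled to the library's total over tested circRNAs) in Hezuo and 1385 ± 309 CPM in Bama (SD, n = 6 each). The host averaged 364 ± 36 FPKM in Hezuo and 345 ± 63 FPKM in Bama. Cathepsin genes have close relatives, so part of these reads may be shared between copies.

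The second was the ZNF292 circle, 370 bases at chr1:55666252-55669095 on the plus strand. It had 38, 28 and 41 counts in Hezuo cold, 48, 37 and 39 in Hezuo room temperature, 42, 50 and 93 in Bama cold and 75, 49 and 63 in Bama room temperature. It averaged 922 ± 94.1 CPM in Hezuo and 1256 ± 376 CPM in Bama (SD, n = 6 each), with overlapping libraries. Its linear RNA was lower in Hezuo, at 3.22 ± 0.55 FPKM against 5.07 ± 0.76 FPKM in Bama (log2 fold change -0.43 ± 0.10 SE; adjusted p = 0.0213, edgeR quasi-likelihood test with Benjamini-Hochberg adjustment). The circle had a log2 fold change of -0.44 ± 0.23 with adjusted p = 0.465 by the same edgeR test.

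The AP2A1 circle, from a subunit of the clathrin adaptor that gathers receptors for endocytosis, had 498 counts and varied little. Its counts were 48, 31 and 35 in Hezuo cold, 30, 34 and 48 in Hezuo room temperature, 47, 41 and 32 in Bama cold and 53, 42 and 57 in Bama room temperature. Group ranges overlapped throughout. The circle of ZKSCAN1, a zinc finger gene whose circle has been studied in human liver, measured 672 bases at chr3:7928957-7929871. It had 19, 14 and 7 counts in Hezuo cold, 29, 10 and 31 in Hezuo room temperature, 20, 25 and 25 in Bama cold and 27, 26 and 22 in Bama room temperature. Cold and room temperature overlapped in each breed. Of the other 6 single-circle hosts known for a much-studied circle, TULP4 had 30 counts, PSMA1 16, MTO1 13, RTN4 13, ZNF609 8 and FAT1 2. In edgeR's test 5 of the 7 circles and all 7 linear RNAs were tested, and 0 passed between breeds or for cold averaged over breeds. Over all tested circRNAs 1.28% passed between breeds and 0.199% for cold, and over all genes 11.97% and 3.89%. So few hosts are too small a set to read against these shares.

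Further circles with over 200 counts came from an SLC22A9-like organic anion transporter (ENSSSCG00000013057, 534 counts), MOXD1 (529), RRP15 (327), ACVR2A (282), the ubiquitin ligase gene ZNRF2 (268), the deubiquitinase gene USP10 (241), NDUFB2 of respiratory complex I (233), C12orf29 (220) and TGFBRAP1, which acts in endosomal tethering (208). Reads from the SLC22A9-like gene may be shared with its neighbours in the same transporter family. The SDAD1 circle (199) and the ECH1 circle (180), from an enzyme of mitochondrial and peroxisomal fatty acid oxidation, followed.

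By gene class, the single-circle hosts were set beside the 3047 hosts with several circles. Lists were matched by gene name, so a zinc finger gene without such a name (PRDM11, ZFPM2) is not on that list. Of the 1659, 41 (2.47%) carry the name of a zinc finger family, against 1.54% of the others, and 30 (1.81%) belong to the mitochondrial ribosome or respiratory chain, against 0.820%. Lower shares encode chromatin and histone modifiers (15, or 0.904%, against 2.99%), membrane traffic and small GTPase regulators (53, or 3.19%, against 5.48%), kinases and phosphatases (50, or 3.01%, against 4.92%) and ubiquitin ligases and deubiquitinases (41, or 2.47%, against 3.94%). Liver metabolism enzymes (50, or 3.01%, against 3.41%) and transporters (57, or 3.44%, against 3.15%) had shares close to those of the others. These shares are descriptions without a test, and the name patterns were chosen by hand.

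Each library held 39117 to 75616 back-splice counts and 20041285 to 30188037 gene counts, and the single circles took 3.71% to 4.44% of its back-splice counts. Their share was 4.15 ± 0.23% in Hezuo cold, 4.23 ± 0.19% in Hezuo room temperature, 4.12 ± 0.25% in Bama cold and 4.06 ± 0.31% in Bama room temperature (SD, n = 3 each), with overlap between all groups. All 10 hepatocyte markers were found, with summed levels of 46507 to 92638 FPKM. The labels give no sex, and the Y-linked gene DDX3Y had 1331 to 2407 counts in the 6 Hezuo libraries and 2284 and 3769 in replicates 1 and 3 of Bama cold, but 0 to 3 in replicate 2 of Bama cold and in the 3 Bama room temperature libraries. Breed and the presence of Y-linked RNA can thus be told apart only through those 2 Bama libraries, and within Bama Y-linked RNA was found in 2 of the 3 cold libraries and none of the 3 at room temperature. In bulk tissue fewer cells of a type and less RNA per cell cannot be told apart.

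A test was possible for 512 single circles with at least 10 counts in all and at least 2 in 3 or more libraries, and these held 79.4% of the counts. The other 1147 circles, with 5345 counts, were too sparse. Between breeds, over both temperatures, 8 of the 512 changed (1.56%), 4 higher and 4 lower in Hezuo, by edgeR's quasi-likelihood test with Benjamini-Hochberg adjusted p below 0.05 over all 9032 circRNAs tested. The percentage called among all 9032 was 1.28, of which 0.775 higher and 0.509 lower. The share of single circles called was near this background, and an unadjusted p below 0.05 was found for 53 (10.4%) of the single circles and 11.1% of all. The median log2 fold change was -0.08 for the single circles and -0.07 for all. Calls came mostly from deep circles. Of 41 single circles with at least 100 counts 5 changed (12.2%), beside 20 of 408 (4.90%) in hosts with 2 to 9 circles and 20 of 390 (5.13%) in hosts with 10 or more. Of the 471 with fewer counts 3 changed (0.637%). The difference between these shares was not tested. The median SE of the log2 fold change was 0.40 for the deep circles and 1.06 for the others.

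**Figure D3:**
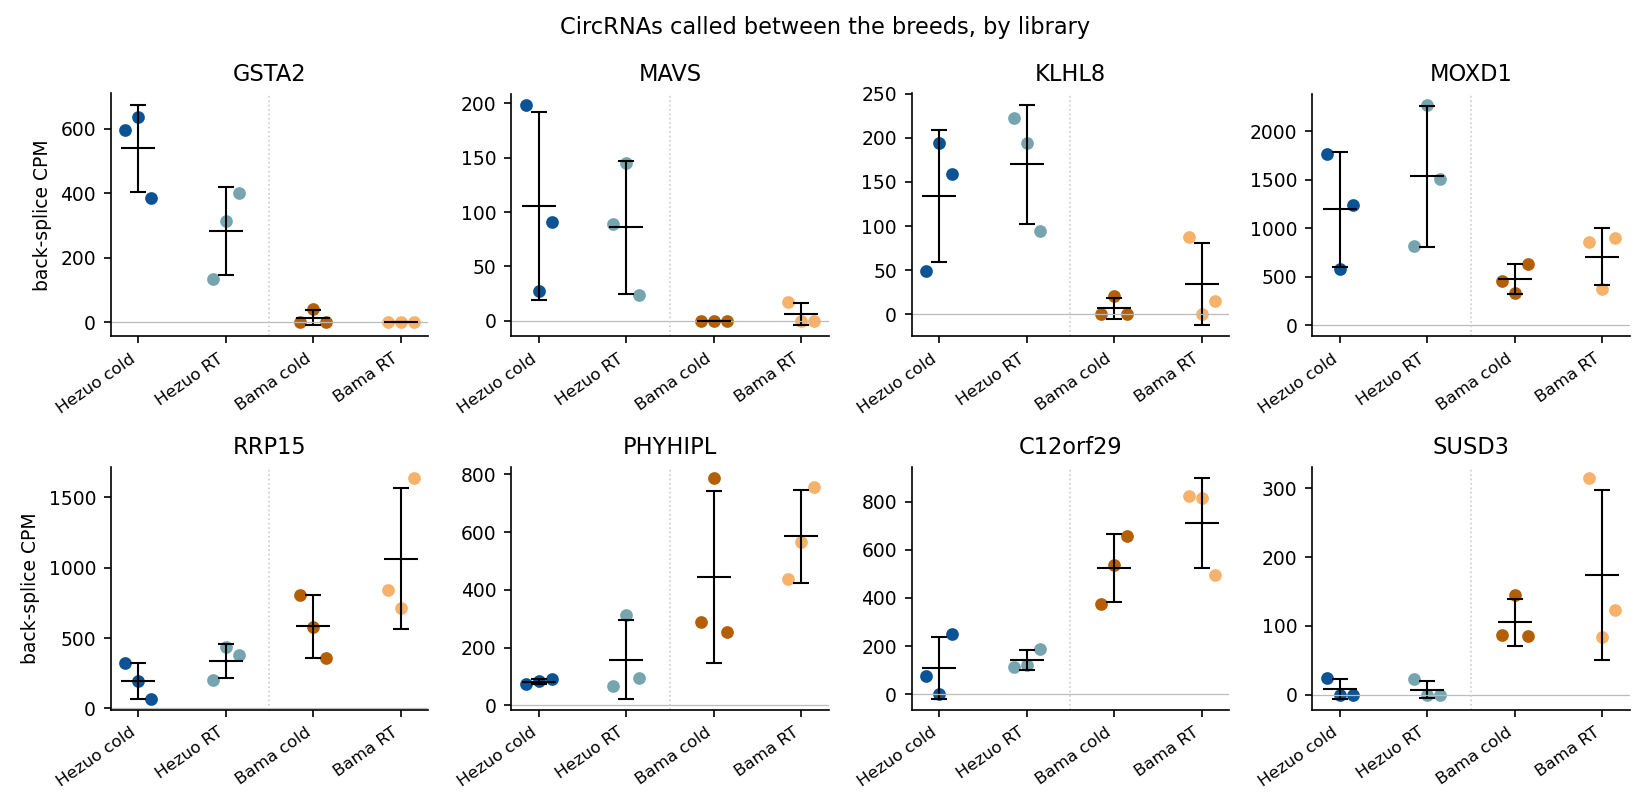
Level of the 8 circles that changed between breeds, in CPM of tested circRNA counts, for each library (points), with the mean and SD of 3 libraries per group (bars); Hezuo groups stand left of Bama groups, and cold left of room temperature. GSTA2, MAVS, KLHL8 and MOXD1 are higher in Hezuo, C12orf29, PHYHIPL, RRP15 and SUSD3 lower.

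The largest of the 8 changes was in the circle of GSTA2, an alpha-class glutathione transferase that detoxifies electrophiles in hepatocytes. The circle spans chr7:46548359-46560801 on the minus strand and is long, 4286 bases after splicing. It had 24, 23 and 17 counts in Hezuo cold and 6, 13 and 17 in Hezuo room temperature, against 0, 2 and 0 in Bama cold and 0, 0 and 0 in Bama room temperature. Every Hezuo library lay above every Bama library. The ratio of Hezuo to Bama was 60.1 after scaling, with an exact 95% interval of 16.2 to 503.3 that covers counting error only (adjusted p = 3.98e-13, edgeR). The linear RNA did not pass: it averaged 961 ± 370 FPKM in Hezuo and 850 ± 180 FPKM in Bama (log2 fold change 0.46 ± 0.24, adjusted p = 0.224, edgeR). The alpha-class genes lie side by side and are alike in sequence, so the assignment of both junction and linear reads to this copy is uncertain.

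The MOXD1 circle (529 counts, chr1:31303623-31305779, plus strand) was higher in Hezuo, and so was its linear RNA. MOXD1 encodes a monooxygenase-like protein of the endoplasmic reticulum. The circle had 71, 21 and 55 counts in Hezuo cold and 37, 94 and 64 in Hezuo room temperature, against 16, 16 and 30 in Bama cold and 49, 18 and 58 in Bama room temperature, so the breeds overlapped. It averaged 1367 ± 622 CPM in Hezuo and 594 ± 243 CPM in Bama (SD, n = 6 each), a log2 fold change of 1.21 ± 0.24 (adjusted p = 0.000157, edgeR). The linear RNA averaged 21.3 ± 4.5 FPKM in Hezuo and 8.22 ± 4.8 FPKM in Bama, a log2 fold change of 1.59 ± 0.34 (adjusted p = 0.0174, edgeR).

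The circles of MAVS and KLHL8 were also higher in Hezuo, from few counts. MAVS is the mitochondrial adaptor of the RIG-I antiviral pathway. Its circle (chr17:31860362-31861680, minus strand, 327 bases) had 8, 1 and 4 counts in Hezuo cold and 4, 6 and 1 in Hezuo room temperature, against 0, 0 and 0 in Bama cold and 1, 0 and 0 in Bama room temperature. The ratio was 28.9 with an exact counting interval of 4.71 to 1187 (adjusted p = 0.024, edgeR), and the call was lost without 8 of the 12 libraries in turn, the exceptions being replicates 2 and 3 of Hezuo cold, 3 of Hezuo room temperature and 1 of Bama room temperature. KLHL8 is a Kelch-like protein that can serve as adaptor of a ubiquitin ligase. Its circle (chr8:131663527-131685805, plus strand, 1680 bases) had 2, 7 and 7 counts in Hezuo cold and 10, 8 and 4 in Hezuo room temperature, against 0, 1 and 0 in Bama cold and 5, 0 and 1 in Bama room temperature. Its linear RNA was also higher in Hezuo, at 5.28 ± 0.74 FPKM against 4.62 ± 1.0 FPKM in Bama (log2 fold change 0.41 ± 0.12, adjusted p = 0.0399, edgeR). The circle's levels overlapped between breeds in 1 Bama library, and the log2 fold change was 2.96 ± 0.82 (adjusted p = 0.0307, edgeR); this call too was lost without 8 of the 12 libraries in turn, the exceptions being replicates 1 of Hezuo cold, 3 of Hezuo room temperature, 2 of Bama cold and 1 of Bama room temperature.

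Of the circles lower in Hezuo, that of C12orf29 (chr5:94479159-94482115, minus strand, 411 bases) separated the breeds fully. It had 3, 0 and 11 counts in Hezuo cold and 5, 5 and 8 in Hezuo room temperature, against 13, 26 and 31 in Bama cold and 47, 39 and 32 in Bama room temperature. It averaged 124 ± 86.9 CPM in Hezuo and 618 ± 180 CPM in Bama (SD, n = 6 each), a log2 fold change of -2.26 ± 0.37 (adjusted p = 7.98e-07, edgeR). The human gene of this name encodes an RNA ligase. The linear RNA had 3.40 ± 0.96 FPKM in Hezuo and 5.24 ± 1.1 FPKM in Bama, with a log2 fold change of -0.37 ± 0.15 (adjusted p = 0.13, edgeR).

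The circle of RRP15 (chr10:8265577-8271193, plus strand, 575 bases), whose protein takes part in maturation of the large ribosomal subunit, had 13, 7 and 3 counts in Hezuo cold and 9, 18 and 16 in Hezuo room temperature, against 28, 28 and 17 in Bama cold and 48, 34 and 106 in Bama room temperature. The breeds overlapped slightly and the highest library was replicate 3 of Bama at room temperature. The log2 fold change was -1.61 ± 0.31 (adjusted p = 6.28e-05, edgeR). The linear RNA averaged 2.26 ± 0.33 FPKM in Hezuo and 3.60 ± 0.52 FPKM in Bama, with adjusted p = 0.136 by edgeR.

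The PHYHIPL circle (chr14:62602234-62608494, plus strand, 490 bases), from a gene best known in brain, had 3, 3 and 4 counts in Hezuo cold and 3, 13 and 4 in Hezuo room temperature, against 10, 38 and 12 in Bama cold and 25, 27 and 49 in Bama room temperature. The breeds overlapped slightly. It fell by 2.14 on the log2 scale, with SE 0.40 (adjusted p = 3.22e-05, edgeR). Its host fell too, to 0.152 ± 0.097 FPKM in Hezuo, against 0.623 ± 0.24 FPKM in Bama (log2 fold change -1.85, adjusted p = 0.00741, edgeR). The SUSD3 circle (chr3:42614251-42617268, plus strand) had 1, 0 and 0 counts in Hezuo cold and 1, 0 and 0 in Hezuo room temperature, against 3, 7 and 4 in Bama cold and 18, 4 and 8 in Bama room temperature. No library of one breed reached the other. Bama was 18.3 times Hezuo, with an exact counting interval of 4.77 to 156 (adjusted p = 0.00994, edgeR; 0.101 without replicate 1 of Bama room temperature), and the linear RNA, which encodes a sushi-domain membrane protein, was also lower in Hezuo, at 0.938 ± 0.17 FPKM against 3.06 ± 0.88 FPKM in Bama (log2 fold change -1.44, adjusted p = 0.00356, edgeR).

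The breeds did not overlap for 7 of the 512 circles (1.37%), against 0.864% of all tested circRNAs: GSTA2, ZNHIT6, ABCC10 and MAVS higher in Hezuo, and C12orf29, SUSD3 and MRPL2 lower. In the 2 Bama libraries with Y-linked RNA, which match the Hezuo libraries in this respect, the circles of GSTA2, MAVS and KLHL8 had 0 counts each, the C12orf29 circle had 376 and 659 CPM against 0 to 249 CPM in Hezuo, and the SUSD3 circle had 85.1 and 86.7 CPM against 0 to 24.9 CPM in Hezuo. There the RRP15 circle had 361 and 809 CPM against 67.9 to 436 CPM in Hezuo, the PHYHIPL circle 255 and 289 CPM against 66.8 to 315 CPM, and the MOXD1 circle 463 and 638 CPM against 581 to 2277 CPM, and these 3 overlapped. In the 4 Bama libraries without Y-linked RNA they had 580 to 1638, 437 to 787 and 331 to 896 CPM in that order. Within Bama the PHYHIPL circle thus separated by Y-linked RNA, whose part in its call was not tested. Markers of T and NK cells, all 7 detected, summed to 21.7 to 33.2 FPKM in Hezuo and 40.2 to 116.3 FPKM in Bama without overlap. Of the 7, GZMB and CD3E overlapped, and KLRB1 leaned the other way, at 1.03 to 2.85 FPKM in Hezuo and 0.29 to 1.61 FPKM in Bama. Erythroid markers, 5 of 6 found, summed to 2421 to 20954 FPKM in Hezuo and 284 to 6361 FPKM in Bama. Their part in the breed differences was not tested.

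A circle can move because its host moves, so each circle was also tested relative to the linear RNA of its host (limma on the log2 ratio of circle to host counts, 505 circles). Between breeds 7 changed (1.39%), while 1.16% of all 8790 ratios tested did. Relative to their hosts 4 circles were higher in Hezuo by limma with Benjamini-Hochberg adjustment. The log2 ratio changes were 4.42 for GSTA2 (limma, adjusted p = 7.92e-10), 2.92 for MAVS (limma, adjusted p = 0.00706), 2.74 for GPR137C (limma, adjusted p = 0.0333) and 2.36 for KLHL8 (limma, adjusted p = 0.0371). Their sizes depended on the setting. Over the alternatives run they ranged from 2.78 to 9.57, 1.64 to 8.61, 1.72 to 8.16 and 1.31 to 2.86 in that order. The other 3 were lower in Hezuo relative to their hosts, with log2 ratio changes of -2.16 for C12orf29 (limma, adjusted p = 0.00163), -1.41 for RRP15 (limma, adjusted p = 0.0114) and -2.66 for UNC93A (limma, adjusted p = 0.0346). TMM scaling lowers the ratios of Hezuo relative to plain library size. On the log2 scale it shifts host RNA up by 0.26 and circles down by 0.06 in Hezuo relative to Bama. Over all ratios 0.375% were called higher and 0.785% lower in Hezuo, and no other scaling of the ratio was run. The RRP15 call was lost without replicate 3 of Hezuo cold, 1 of Hezuo room temperature or 3 of Bama room temperature, and that of MAVS without replicate 1 of Hezuo cold or 2 of Hezuo room temperature. The KLHL8 call relative to its host was lost without the same 8 libraries as that of the circle alone. The hosts of 4 of the 8 circles called between breeds changed in the direction of the circle, and of these MOXD1, PHYHIPL and SUSD3 did not pass on this scale while KLHL8 did.

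The UNC93A circle pointed the other way from its host. UNC93A is a membrane protein related to the chaperone UNC93B1. The circle (chr1:1948390-1952054, plus strand) had 0, 0 and 2 counts in Hezuo cold and 0, 0 and 1 in Hezuo room temperature, against 2, 2 and 0 in Bama cold and 3, 8 and 2 in Bama room temperature. Bama was 4.71 times Hezuo, with an exact counting interval of 1.36 to 25.1, and the circle alone did not pass (adjusted p = 0.543, edgeR). In the 2 Bama libraries with Y-linked RNA the circle had 0 and 57.8 CPM, which overlapped the 0 to 45.3 CPM of Hezuo. The 4 Bama libraries without Y-linked RNA had 30.9 to 167 CPM, and its part in the call was not tested. The linear RNA was higher in Hezuo, at 7.68 ± 1.3 FPKM against 3.79 ± 0.72 FPKM in Bama (log2 fold change 1.25 ± 0.15, adjusted p = 0.00159, edgeR). The GPR137C circle (chr1:182231886-182234106, plus strand) had 0, 12 and 3 counts in Hezuo cold and 0, 2 and 1 in Hezuo room temperature, against 0, 0 and 0 in Bama cold and 1, 0 and 0 in Bama room temperature, so 1 library held most of it. The UNC93A call was lost without 7 of the 12 libraries in turn, replicates 1 and 2 of Hezuo cold, of Hezuo room temperature and of Bama cold and replicate 2 of Bama room temperature. The GPR137C call was lost without 6 of the 9 for which a test remained, replicate 3 of Hezuo room temperature, the 3 of Bama cold and replicates 2 and 3 of Bama room temperature.

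**Figure D4:**
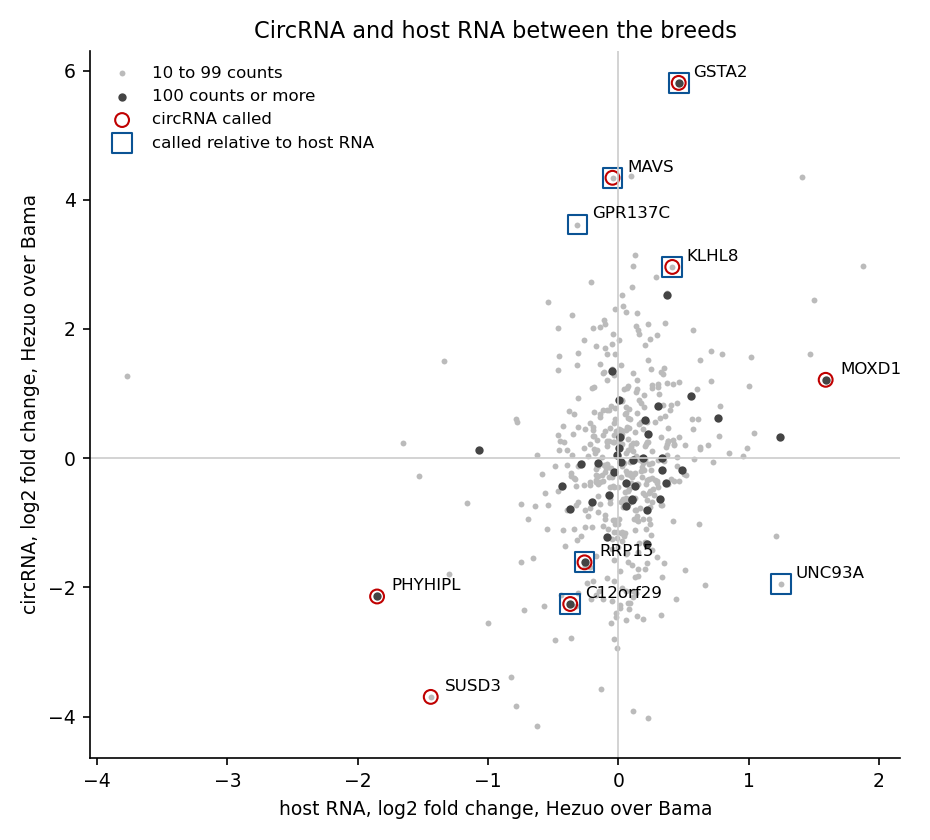
Log2 fold change between breeds (Hezuo over Bama) of each of 505 single circles against that of its host's linear RNA, with circles that changed ringed in red and circles that changed relative to the host marked by blue squares. The cloud is taller than wide (Pearson 0.21), and MOXD1 and PHYHIPL lie near the diagonal. SUSD3 lies below it (circle -3.70, host -1.44), and GSTA2 stands far above it.

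Across the 505 circles the log2 fold changes of circle and host had a Pearson correlation of 0.21 between breeds and 0.12 for cold, and across the 41 circles with at least 100 counts 0.44 and 0.21. These describe the scatter only, since circle and host share libraries. Of the 1618 hosts with a testable linear RNA, 199 (12.3%) changed between breeds, 117 higher and 82 lower in Hezuo (edgeR), while the percentage called among all 13532 genes was 11.97, of which 6.10 higher and 5.87 lower. Without each library in turn the number of hosts called ran from 68 (without replicate 1 of Hezuo room temperature) to 221. Of these 199, 58 had a testable circle, and in 39 of the 58 the circle's log2 fold change had the sign of the host's. The share of same signs over all 505 circles was not counted, so this is a description only. Host log2 fold changes are TMM-scaled, which places Hezuo 0.26 above Bama relative to plain library size, and 116 of the 117 higher hosts and all 82 lower hosts kept that order in mean FPKM.

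Among the hosts, liver metabolism enzymes stood mostly on the higher side in Hezuo. Of 49 tested, 15 rose and 2 fell, with a median log2 fold change of 0.35 over the 49, beside 0.00 over all genes. CYP2C33, a cytochrome P450, rose to 2325 ± 841 FPKM in Hezuo, against 1302 ± 399 FPKM in Bama (adjusted p = 0.0174, edgeR). HSD17B2, which oxidises sex steroids, rose to 146 ± 58.9 FPKM in Hezuo, against 41.4 ± 30.0 FPKM in Bama (adjusted p = 0.0238, edgeR). ECH1 had 53.8 ± 8.2 FPKM in Hezuo and 43.4 ± 7.1 FPKM in Bama (adjusted p = 0.0156, edgeR). CYP2C42 fell to 0.447 ± 0.487 FPKM in Hezuo, against 9.71 ± 9.38 FPKM in Bama (adjusted p = 0.0093, edgeR). Most of that gap lay at room temperature, with 0.127 ± 0.050 FPKM in Hezuo and 17.6 ± 5.2 FPKM in Bama. In the cold the values were 0.767 ± 0.532 FPKM in Hezuo and 1.79 ± 2.14 FPKM in Bama. The Bama room temperature libraries were all without Y-linked RNA, whose part in these host differences was not tested. Cytochrome P450 genes of 1 subfamily share sequence, and their counts are uncertain to that extent.

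The other lists can be read against the 6.10% of all genes called higher and the 5.87% called lower. Of 56 transporter hosts tested 7 rose and 4 fell in Hezuo, of 30 mitochondrial ribosome and respiratory chain hosts 4 rose and 0 fell, and of 36 cytoskeleton and centrosome hosts 3 rose and 3 fell. Of 56 RNA-binding hosts 2 were called higher and 3 fell, and 1 of the 2, RBM47, had nearly equal mean levels in FPKM, at 13.3 ± 0.69 in Hezuo and 13.3 ± 1.7 in Bama. Of 49 kinase and phosphatase hosts 0 rose and 3 fell, of 53 membrane traffic hosts 0 rose and 4 fell, and of 15 chromatin hosts 0 rose and 2 fell. Of 41 zinc finger hosts 0 rose and 2 fell, of 41 ubiquitin hosts 2 rose and 0 fell, and of 21 DNA repair and replication hosts 0 rose and 2 fell. The shares in these small lists were not tested. DHX58, a relative of the RNA sensor RIG-I, fell to 0.208 ± 0.182 FPKM in Hezuo, against 5.64 ± 5.81 FPKM in Bama (adjusted p = 0.0093, edgeR), and its circle had 4 counts. RAB27A, a small GTPase of secretory granules, fell to 2.51 ± 0.40 FPKM in Hezuo, against 6.58 ± 1.78 FPKM in Bama (adjusted p = 0.0044, edgeR), with 2 circle counts. Hosts named for their linear RNA in these paragraphs were chosen after their values were seen.

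For cold against room temperature no single circle passed. By edgeR's quasi-likelihood test with Benjamini-Hochberg adjustment 0 of 512 passed in Hezuo, in Bama, averaged over breeds and for the difference between breeds in the response, and DESeq2 called 0 in each of the 4. Among all tested circRNAs edgeR called 0.0886% in Hezuo, 0.155% in Bama, 0.199% averaged over breeds and 0.0886% for the breed difference. An unadjusted p below 0.05 was found in Hezuo for 35 of the 512 single circles (6.84%; 5.79% over all tested circRNAs), in Bama for 28 (5.47%; 6.53% over all), averaged over breeds for 32 (6.25%; 7.86% over all) and for the breed difference for 25 (4.88%; 5.67% over all). Relative to the host 0 of 505 passed by limma for cold averaged over breeds, where 0.0228% of all ratios were called, and 34 of the 505 (6.73%) had an unadjusted p below 0.05, against 6.86% over all ratios. For cold over both breeds 0 of the 512 circles had groups without overlap, against 0.266% of all tested circRNAs. Within Hezuo the cold libraries all lay on one side of the room temperature libraries for 31 circles (6.05%) and for 8.59% of all tested circRNAs. Within Bama the same held for 39 circles (7.62%) and for 10.4% of all.

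The 41 circles with at least 100 counts allow the closest look at cold. Their log2 fold changes, cold over room temperature, were above 0 in 20 and below 0 in 21, from -1.69 for GBA3, a cytosolic glucosidase gene, to 1.82 for GSTA2, with SEs of 0.21 to 0.86. The SLC22A9-like circle came nearest to a call. It had 44, 22 and 34 counts in Hezuo cold against 95, 72 and 46 in Hezuo room temperature, and 12, 21 and 32 in Bama cold against 21, 41 and 94 in Bama room temperature. After scaling, the Hezuo groups overlapped by 1 library and the Bama groups by more. It averaged 656 ± 266 CPM in the cold and 1270 ± 631 CPM at room temperature (SD, n = 6 each), a log2 fold change of -0.93 ± 0.24 with adjusted p = 0.0549 (edgeR). The linear RNA averaged 25.5 ± 9.6 FPKM in the cold and 39.8 ± 9.1 FPKM at room temperature (adjusted p = 0.106, edgeR). The SDAD1 circle had 2, 24 and 34 counts in Hezuo cold against 7, 8 and 4 in Hezuo room temperature, and 13, 29 and 17 in Bama cold against 22, 20 and 19 in Bama room temperature. Its cold libraries were split in Hezuo and overlapped room temperature in Bama, and its adjusted p was 0.405 (edgeR).

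**Figure D5:**
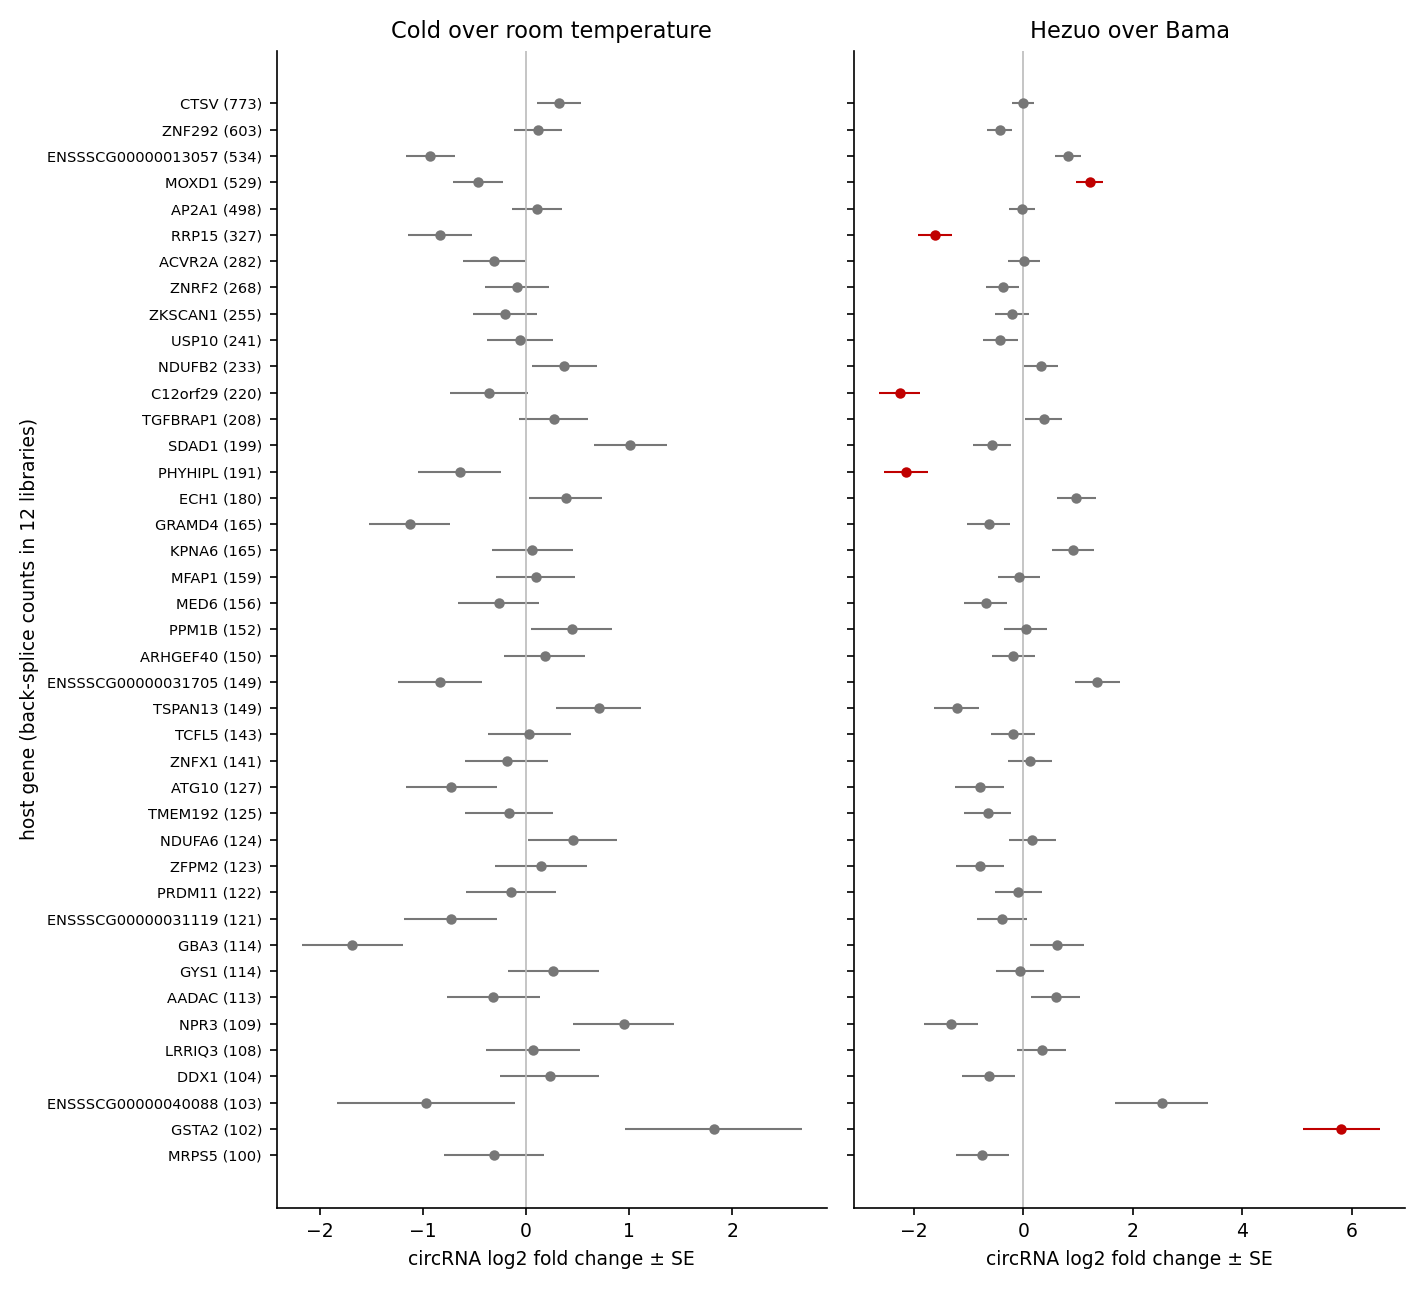
Log2 fold change with SE of the 41 single circles with at least 100 counts, for cold over room temperature averaged over breeds (left) and Hezuo over Bama averaged over temperatures (right), with circles that changed in red. On the left 20 points lie above 0, 21 below, and none is red; on the right 5 are red, with GSTA2 at the far end.

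Among the linear RNAs of the hosts some changed with cold, at a share near that over all genes. Of 1618 tested hosts 7 (0.433%) changed in Hezuo (4 up, 3 down), 11 (0.680%) in Bama (6 up, 5 down) and 56 (3.46%) averaged over breeds (34 up, 22 down), by edgeR. Among all genes tested 0.281% were called in Hezuo (0.200% up, 0.0813% down), 0.924% in Bama (0.384% up, 0.539% down) and 3.89% averaged over breeds (1.95% up, 1.94% down). Without each library in turn these host counts ran from 0 to 7 in Hezuo, from 1 to 15 in Bama and from 14 to 70 averaged over breeds. HPD, an enzyme of tyrosine breakdown, had 491 ± 101 FPKM in Hezuo cold and 360 ± 69 FPKM in Hezuo room temperature, and 1009 ± 184 FPKM in Bama cold against 235 ± 40 FPKM in Bama room temperature (SD, n = 3 each). It rose in Bama by 1.94 ± 0.24 on the log2 scale (adjusted p = 0.00586, edgeR) and had 3 circle counts. GNMT, which spends S-adenosylmethionine, had 500 ± 44 FPKM in Bama cold against 92.2 ± 59 FPKM in Bama room temperature (adjusted p = 0.0343, edgeR) and 2 circle counts. In Bama these changes run partly with Y-linked RNA, and its part in them was not tested. For the difference between breeds in the response 0 hosts passed by edgeR, where 0.00739% of all genes were called. An unadjusted p below 0.05 was found for 117 of the 1618 hosts (7.23%), against 8.02% over all genes, and DESeq2 called 16.

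Of the 56 hosts that changed with cold averaged over breeds, 13 had a testable circle, 9 of them with the sign of the host, and none of the 13 circles passed. The share of same signs over all tested circles was not counted. MRPS5, with 100 circle counts, is an example in which host and circle pointed apart. Its host had a log2 fold change of 0.42 (adjusted p = 0.0459, edgeR) and its circle one of -0.31 (adjusted p = 0.926, edgeR). TSPAN13, a tetraspanin, is the deepest example in which host and circle pointed the same way. Its linear RNA had 64.6 ± 28 FPKM in Hezuo cold against 15.4 ± 2.4 FPKM in Hezuo room temperature, and 44.6 ± 7.0 FPKM in Bama cold against 36.3 ± 8.4 FPKM in Bama room temperature (log2 fold change over both breeds 1.08 ± 0.21, adjusted p = 0.0216, edgeR). The TSPAN13 circle, 477 bases, had 4, 11 and 12 counts in Hezuo cold against 7, 2 and 5 in Hezuo room temperature, and 12, 32 and 11 in Bama cold against 22, 20 and 11 in Bama room temperature. Its groups overlapped and its log2 fold change was 0.70 (adjusted p = 0.714, edgeR). For PER3, a repressor of the circadian clock, host and circle both pointed down with cold. Its linear RNA had 2.09 ± 0.54 FPKM in Hezuo cold against 4.65 ± 0.88 FPKM in Hezuo room temperature, and 2.39 ± 0.35 FPKM in Bama cold against 3.11 ± 0.55 FPKM in Bama room temperature (log2 fold change -0.87 ± 0.15, adjusted p = 0.0131, edgeR). The PER3 circle had 7, 4 and 15 counts in Hezuo cold against 11, 14 and 5 in Hezuo room temperature, and 4, 4 and 2 in Bama cold against 16, 6 and 10 in Bama room temperature. The Bama groups did not overlap, the Hezuo groups did, and the log2 fold change was -0.69 (adjusted p = 0.776, edgeR).

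By list, averaged over breeds, where 1.95% of all genes rose and 1.94% fell, 4 of 49 liver enzyme hosts rose with cold (HPD, GNMT, SDSL, IDH3A) and 2 fell (CYP2A19, HAO1), with a median log2 fold change of 0.00 over the 49. Of 56 transporter hosts 4 rose, among them SLC25A20, the mitochondrial carnitine carrier, at 24.5 ± 7.9 FPKM in the cold and 14.8 ± 3.2 FPKM at room temperature (adjusted p = 0.042, edgeR), and 2 fell. Of 30 mitochondrial ribosome and respiratory chain hosts 3 rose and 0 fell, of 49 kinase and phosphatase hosts 2 rose and 0 fell, and of 36 cytoskeleton hosts 1 rose and 0 fell. Of 53 membrane traffic and of 21 DNA repair hosts 0 rose and 1 fell each. The shares were not tested. Macrophage markers, 8 of 8 found, summed to 500 to 1030 FPKM in Hezuo cold against 301 to 503 FPKM in Hezuo room temperature, and to 960 to 1810 FPKM in Bama cold against 539 to 918 FPKM in Bama room temperature. Stellate and mesenchymal markers, 8 of 8 found, summed to 140 to 245 FPKM in Hezuo cold against 243 to 428 FPKM in Hezuo room temperature, and to 145 to 267 FPKM in Bama cold against 391 to 888 FPKM in Bama room temperature. The collagens COL1A1, COL1A2 and COL3A1 made up most of this sum. Of the rest, DCN and LRAT were also lower in Bama cold, while PDGFRB, RGS5 and LUM overlapped between the Bama temperatures. In Hezuo RGS5 leaned the other way, at 1.95, 11.4 and 3.94 FPKM in the cold against 1.84, 1.35 and 3.55 FPKM. The sums are thus not a measure of the cell type alone. Their part in the host changes was not tested.

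Circles at 0 in a whole breed or temperature were all sparse, and they are listed because of that 0. Each "at least" below covers only the group at 0, which was set to a floor of 3 counts. It leaves out the counting error of the other group and the spread between pigs, so it is not a confidence limit. With 0 counts in the 6 Hezuo libraries, the SHISAL1 circle had 19 counts in Bama, at least 5.27-fold higher against a floor of 3 counts over the group. INSIG2, which holds back the sterol-sensing machinery, had 17 (at least 4.71-fold), COL21A1 15 (at least 4.16-fold), BLOC1S6 14 (at least 3.88-fold) and MRPL2 12 (at least 3.33-fold). Within Bama most counts lay in the cold for INSIG2 (15, against 2 at room temperature) and COL21A1 (13 against 2). Most lay at room temperature for SHISAL1 (16, against 3 in the cold) and BLOC1S6 (11 against 3). SPATA9 had 16 counts in Hezuo and 0 in Bama (at least 6.41-fold higher). Also at 0 in Bama were NADSYN1 and UBE2G2 with 14 each in Hezuo (at least 5.61-fold) and RNF32 with 13 (at least 5.21-fold). DTD1 had 13 counts in the cold and 0 at room temperature (at least 5.16-fold higher). Also at 0 at room temperature were FAM198A, with 12 counts in the cold (at least 4.77-fold), and LGMN, with 11 (at least 4.37-fold). With 0 counts in the cold, TRPA1 had 13 at room temperature (at least 3.64-fold lower in the cold), and IFFO1 and SLC25A36 had 12 each (at least 3.36-fold lower). Of these, DTD1, UBE2G2 and TRPA1 had all but 1 or 2 of their counts in 1 library. Those that could be tested did not pass in edgeR.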

How the data were processed

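Liver RNA of 12 pigs was depleted of ribosomal RNA, fragmented, copied with random primers and sequenced with strand kept, per the labels' protocols; fastp is named in the submitters' processing notes. Aligner, circRNA caller, counter and build: not given in the sources used here. The circRNA table holds back-splice counts that the authors deposited, with RPM values that the authors deposited beside them and that were not used in tests. For genes the authors deposited estimated counts, rounded here to whole numbers, and FPKM values, which were used as levels. Of the 1659 hosts, 1655 have a row in the gene table and 45 have no name.

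Counts were fitted with edgeR 4.0.16 (R 4.3.3), TMM scaling, robust quasi-likelihood, 4 groups of 3 and 8 residual degrees of freedom, over all 9032 circRNAs with 10 or more counts in all and 2 or more in each of 3 or more libraries, and over 13532 genes kept by filterByExpr (minimum count 10, total 15). TMM factors ran from 0.954 to 1.07 over circRNAs and from 0.874 to 1.20 over genes. Circle to host ratios used limma 3.58.1 with a pseudocount of 0.5 and voom weights over 8790 circRNAs. P-values were adjusted by Benjamini-Hochberg over each whole table and called below 0.05. An SE is the absolute log2 fold change over the square root of F. Steps were checked on simulated data. Alternatives were DESeq2 1.42.0, other filters, pseudocounts and scaling, a replicate block, and leaving out each library. Pairs of replicates were distinct and none was merged. Between same-numbered pigs of different groups, deviations from the group mean had correlations of -0.027 to 0.034 over circRNAs and -0.198 to 0.148 over genes. Pigs with different numbers were not compared, so this check cannot exclude pairing. The main fits treat the samples as unpaired.

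The circles named are the 15 with most counts, those called, the 8 with most counts per host FPKM, those at 0 in a breed or temperature, those of much-studied hosts and up to 4 per host list. The members and lists were chosen with earlier results of these data known. No sequences were used.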

Additional observations from a re-analysis of the deposited data

How the results depend on the processing

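The number of single circles called between breeds stayed between 6 and 10 without each library in turn, and the numbers for cold were 0 to 1 averaged over breeds, 0 to 1 in Hezuo, 0 to 0 in Bama and 0 to 0 for the breed difference. The 1 call for cold was the SLC22A9-like circle without replicate 1 of Hezuo cold, 3 of Hezuo room temperature, 3 of Bama cold or 1 of Bama room temperature, and in Hezuo SDAD1 without replicate 1 of Hezuo cold. With circles scaled by the gene counts, the SLC22A9-like and GBA3 circles fell with cold, 2 calls in all. GSTA2, C12orf29, RRP15, PHYHIPL and MOXD1 kept their breed call under all 18 alternatives. SUSD3 lost it without replicate 1 of Bama room temperature (adjusted p = 0.101, edgeR), MAVS with DESeq2 and with no filter, and KLHL8 with no filter. Circles that gained a breed call were higher in Hezuo. The SLC22A9-like circle (main adjusted p = 0.0568, edgeR) passed with other scaling, a stricter filter, a replicate block and without some single libraries. ENSSSCG00000031705 (main 0.0645, edgeR) passed with other scaling, a stricter filter and DESeq2. ENSSSCG00000040088, glycine N-acyltransferase-like (main 0.19, edgeR), passed with no filter and without some single libraries.

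Relative to hosts, 4 to 7 circles were called between breeds without each library (4 without replicate 2 or 3 of Hezuo cold, 1 or 2 of Hezuo room temperature or 1 of Bama cold), and 0 to 0 for cold. Under a stricter filter 4 were called, 1 of which (ENSSSCG00000031705, adjusted p = 0.0484, limma) was not among the 7. An edgeR fit of both counts called 2, GSTA2 and MAVS, and the cause was not tested. With a pseudocount of 2 the calls of RRP15, KLHL8 and GPR137C were lost. SLCO3A1 and ENSSSCG00000031705 were called there instead.

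Host calls depended most on the setting. DESeq2 called 66 for cold in Hezuo, 69 for cold in Bama, 180 averaged over breeds, 307 between breeds and 16 for the breed difference. Without each library the ranges were 0 to 7, 1 to 15, 14 to 70, 68 to 221 and 0 to 3 in that order. Libraries are given as breed, temperature and replicate. For cold in Hezuo the count was 0 without Hezuo cold 2 or 3, any 1 of the Hezuo room temperature libraries or Bama cold 2, and 3 without Bama cold 1 or Bama room temperature 2. For cold in Bama it was 1 to 6 without any 1 of the Hezuo cold libraries, Hezuo room temperature 1 or 3, Bama cold 1 or 3, or Bama room temperature 1 or 3. Averaged over breeds it was 14 to 33 without Hezuo cold 2 or 3, Hezuo room temperature 2 or 3, Bama cold 1 or 3, or Bama room temperature 3. Between breeds it was 68 to 108 without Hezuo cold 1, Hezuo room temperature 1 or 3, Bama cold 1, or Bama room temperature 1 or 3. For the breed difference it was 1 without Hezuo cold 2 or Bama room temperature 2 and 3 without Bama room temperature 3. The cause was not tested. With a replicate block, for a pairing that the check could not settle, 0 hosts were called for cold in Hezuo, 2 for cold in Bama, and 9 single circles between breeds. Under the alternatives run no fold change called in the main fit changed direction. Those called in neither the main fit nor the alternative were not checked for direction. The mean FPKM of RBM47 alone, among hosts called between breeds, had the other order than its fold change. Depth limits the rest: 1147 circles were too sparse to test.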

Other observations

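Hosts with a single exonic circle were not always hosts with a single circle. In 363 of them (21.9%) the table lists another 590 circles of other kinds, with 8027 counts, made of 1 exon (152), of exons and introns (263), of introns (49) or antisense (126). In 123 hosts such a circle had more counts than the exonic one. MYL12A, a myosin light chain gene, had 2 counts for its exonic circle against 1533 for an antisense circle. YTHDF3, an m6A reader, had 7 against 258 for a 1-exon circle, and CYP7A1, the rate-limiting enzyme of bile acid synthesis, had 6 against 216 for a 1-exon circle. TULP4 had 30 against 168 for an exon-intron circle.

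Of the 565 single circles with at least 10 counts, 7 (1.24%) had at least 80% of them in 1 library, beside 0.559% for hosts with 2 to 9 circles and 0.326% for hosts with 10 or more. UBE2G2 had 12 of 14 counts in replicate 3 of Hezuo cold, DTD1 12 of 13 in replicate 2 of Hezuo cold and TRPA1 12 of 13 in replicate 1 of Hezuo room temperature. AHNAK and SLC35E1 (10 of 11 each) and ZNF362 (10 of 10) had theirs in replicate 1 of Bama room temperature, and ITGA6 8 of 10 in replicate 3 of that group. These values overlap with the circles listed at 0 in a breed or temperature.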
